A study of Mus musculus with 43 samples.

Results

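A set of 34 genes was at higher levels in sorted crypt cells of irradiated than of non-irradiated mice, and stayed under a limit on the rise with TGFB1 (transforming growth factor beta 1) in bulk RNA of intestinal organoids. A gene entered this set when its level, as CPM + 5, was at least 4-fold higher in both irradiated crypt libraries than in the non-irradiated library. CPM is the usual depth-scaled level, here of the unique molecular identifiers (UMIs, 1 per captured RNA molecule) summed over the cells of a library. It also had to have a difference of log2(mean FPKM + 1), TGFB1 minus vehicle, under 0.3 in each of 3 organoid tables, where FPKM is fragments scaled to transcript length and library size. Of 22126 symbols found in both kinds of data, 34 met both conditions. The first condition alone held for 144 symbols. Of these, 41 had no entry under the same symbol in the organoid tables, and 69 reached the TGFB1 limit in at least 1 table. The genes were thus chosen by the measured values of both contrasts, and their values in those contrasts are a description that supports nothing.

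The crypt cells came from the proximal small intestine of Mki67tm1.1Cle/J mice, in which a red fluorescent protein (RFP) marks cells that make the proliferation protein Ki67. They were sorted as RFP-positive from non-irradiated littermates (1 library) and from mice 56 h after 12 Gy to the whole body (2 libraries), and a wider strainer was used for the irradiated crypts, so handling and irradiation cannot be told apart. The organoids were wild-type C57BL/6 primary intestinal cultures. Bulk RNA-seq covered 6 groups of 3 libraries: no irradiation and collection on day 7 (D7), 4 Gy on day 4 and collection on D7, and 4 Gy on day 4 and collection on day 11 (D11). Each came with vehicle or with 2 ng/mL TGFB1, given on day 6 for 24 h. Single-cell RNA-seq covered irradiated organoids (4 Gy on day 4) collected on day 8 (D8) after 24 h of vehicle, called 0 h, or after 6, 15 or 24 h of 1 ng/mL TGFB1, with 1 library each. The labels do not say whether the 2 irradiated crypt libraries came from separate mice or the organoid replicates from separate cultures, so the spread between replicates may be technical.

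Whole-body irradiation kills dividing crypt cells, and the survivors rebuild the crypt over the following days, passing through a state with genes of fetal and wounded epithelium such as the Sprr and Ly6 families. DNA damage activates the transcription factor p53, and oxidants and metals induce the metallothioneins, small cysteine-rich proteins that bind zinc. TGFB1 signals through SMAD transcription factors and slows the division of epithelial cells. In a single-cell library a sequenced molecule can match several genes, and some counting methods then divide its UMI among them, which leaves entries that are not whole numbers.

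The crypt libraries kept 1846, 719 and 699 cells with at most 20% mitochondrial UMIs, and summed to 25767601, 13733744 and 12344815 UMIs. The defining markers matched the labelled sort: Mki67 stood at 180, 158 and 138 CPM and the epithelial gene Epcam at 1480, 1035 and 988 CPM in the non-irradiated library and the irradiated replicates 1 and 2. The pan-immune gene Ptprc was at 0.957, 2.89 and 1.46 CPM. No barcode was shared between the 3 crypt libraries. Entries that are not whole held 14.4% of the UMIs in the non-irradiated library and 21.96 and 20.6% in the irradiated ones, against 8.61 to 11.9% in the organoid cells. With 1 non-irradiated library, the crypt difference has no replicate check on the control side.

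The 34 genes were of 3 kinds. In 4 of them, Etv4, Gcnt3, Psrc1 and Mt2, at most 5% of the crypt UMIs stood in entries that are not whole (a limit set after the values were seen). Sprr2a1 has near-identical copies in the genome, and 83.6 to 87.6% of its crypt UMIs stood in entries that are not whole. The other 29 genes are called divided genes here. Their median share of UMIs in such entries was 99.2% in the non-irradiated and 100% in each irradiated library (lowest 39.8, 89.7 and 85.9%). An entry that is not whole can also hold whole molecules, so these shares are upper limits for the divided UMIs. In irradiated replicate 1, 30 of the 34 genes (88.2%) had over 50% of their UMIs in such entries. The same held for 13.7% of 3386 symbols at or above the lowest CPM of the set in both irradiated libraries, for 17.4% of the 69 crypt-high genes that reached the TGFB1 limit, and for 90.2% of the 41 crypt-high symbols with no entry in the organoid tables. The label of the set as crypt irradiation genes therefore rests on nearly all whole entries for 4 genes only, and on a group of copies for Sprr2a1. The part of the divided UMIs in the other 29 differences was not tested.

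Etv4, a transcription factor of the ETS family that acts downstream of growth factor receptors, stood at 1.94 CPM in the non-irradiated library and at 45.6 and 59.7 CPM in the irradiated ones (50, 626 and 737 UMIs). The exact Poisson 95% intervals, which cover counting error only, were 1.44 to 2.56, 42.1 to 49.3 and 55.5 to 64.2 CPM. None of its UMIs was divided in these libraries. The smaller of the 2 ratios of CPM + 5 was 7.29.

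Gcnt3, an enzyme that branches the sugar chains of mucins, was at 8.47 CPM without irradiation and at 71.9 and 69.7 CPM after it, so the 2 irradiated libraries were close to each other and the smaller ratio was 5.55. Psrc1, a microtubule-binding protein of the mitotic spindle and a p53 target, was at 8.88, 65.2 and 87.4 CPM, with a smaller ratio of 5.06. Mt2, metallothionein 2, was the highest of the 4, at 104, 484 and 532 CPM (2686, 6646 and 6563 UMIs), with a smaller ratio of 4.48. Its neighbour Mt1, which the rule did not take, went from 519 to 1176 and 1363 CPM. That both irradiated libraries lay above the control in each of the 4 genes was set by the rule. Their counting intervals did not reach the control, which adds no support for genes chosen on these values.

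Upstream sequence is shown for Mt2 and Psrc1, since Mt2 moved furthest between the organoid groups and Psrc1 was lower with TGFB1 in each table. Mpv17l and Rmi2 were also lower in each table without overlap of the libraries, and are not shown. The choice of Psrc1 used a contrast of the rule, so nothing is read from its letters. The 250 bases before the RefSeq start are given 5′ to 3′ on the plus strand of GRCm38. Capitals mark TGCNCNC in Mt2 and CAGACA, the letters bound by SMAD factors, in Psrc1, on either strand. TGCNCNC is a looser form of the metal response element core and was chosen after the values were known. The core takes only A or G at the first N, so not every match is a core. Mt2 (chr8:94172368-94172617) held 5 matches and Psrc1 (chr3:108383554-108383803) held 1.
Mt2: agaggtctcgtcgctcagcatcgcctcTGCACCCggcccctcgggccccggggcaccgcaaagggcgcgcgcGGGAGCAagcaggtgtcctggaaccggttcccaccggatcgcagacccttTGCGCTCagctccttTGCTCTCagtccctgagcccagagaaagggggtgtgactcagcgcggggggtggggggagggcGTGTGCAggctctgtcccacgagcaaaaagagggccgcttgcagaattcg
Psrc1: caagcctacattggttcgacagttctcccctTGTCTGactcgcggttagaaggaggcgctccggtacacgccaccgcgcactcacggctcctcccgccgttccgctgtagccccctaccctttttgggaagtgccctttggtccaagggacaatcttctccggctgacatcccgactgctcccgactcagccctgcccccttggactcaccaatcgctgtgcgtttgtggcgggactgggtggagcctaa

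RefSeq windows were at hand for 23 of the 34 genes. The 5 short motifs searched on both strands were found in few of these windows, and no share stood far above that of all 27025 genes with a window. TGCNCNC was in 9 of 23 (39.1%, against 47.2% of all genes) and CAGACA in 3 (13.0 against 19.3%). The AP-1 letters TGANTCA were in 1, which was Mt2 (4.35 against 7.82%), the STAT letters TTCNNNGAA in 1 (4.35 against 8.13%) and the interferon-stimulated response element in 1 (4.35 against 3.46%). A p53 response element was in 0 of 23, Psrc1 included, and in 0.0666% of all genes. A match is a description of letters, and the absence of one says only that the letters are not in this window.

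Sprr2a1, a small proline-rich protein of stressed and regenerating epithelium, had the largest ratio of the set. It stood at 5.02 CPM without irradiation and at 788 and 1133 CPM after it (129, 10820 and 13990 UMIs), with a smaller ratio of 79.1. Its copies did the same: Sprr2a2 was at 10.0, 785 and 985 CPM and Sprr2a3 at 1.27, 99.8 and 105 CPM, so the reads cannot be given to a single copy with certainty. Counting only whole entries, Sprr2a1 was at 0.621, 129 and 164 CPM and its ratio was 23.9. The RefSeq windows of Sprr2a1 and Sprr2a2 (250 bases before to 50 after the start) were identical over 300 of 300 bases, and the window of Sprr2a3 matched that of Sprr2a1 over 272 of 272 bases at an offset of 28. The shared upstream sequence is shown for Sprr2a1 (chr3:92215585-92215834, GRCm38, plus strand, 5′ to 3′), with the SMAD letters CAGACA in capitals.
Sprr2a1: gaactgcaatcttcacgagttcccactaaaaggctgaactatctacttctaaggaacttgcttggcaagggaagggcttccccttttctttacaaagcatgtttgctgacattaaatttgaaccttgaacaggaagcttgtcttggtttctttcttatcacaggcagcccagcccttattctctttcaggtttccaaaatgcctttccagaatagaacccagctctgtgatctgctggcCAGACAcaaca

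**Figure D1:**
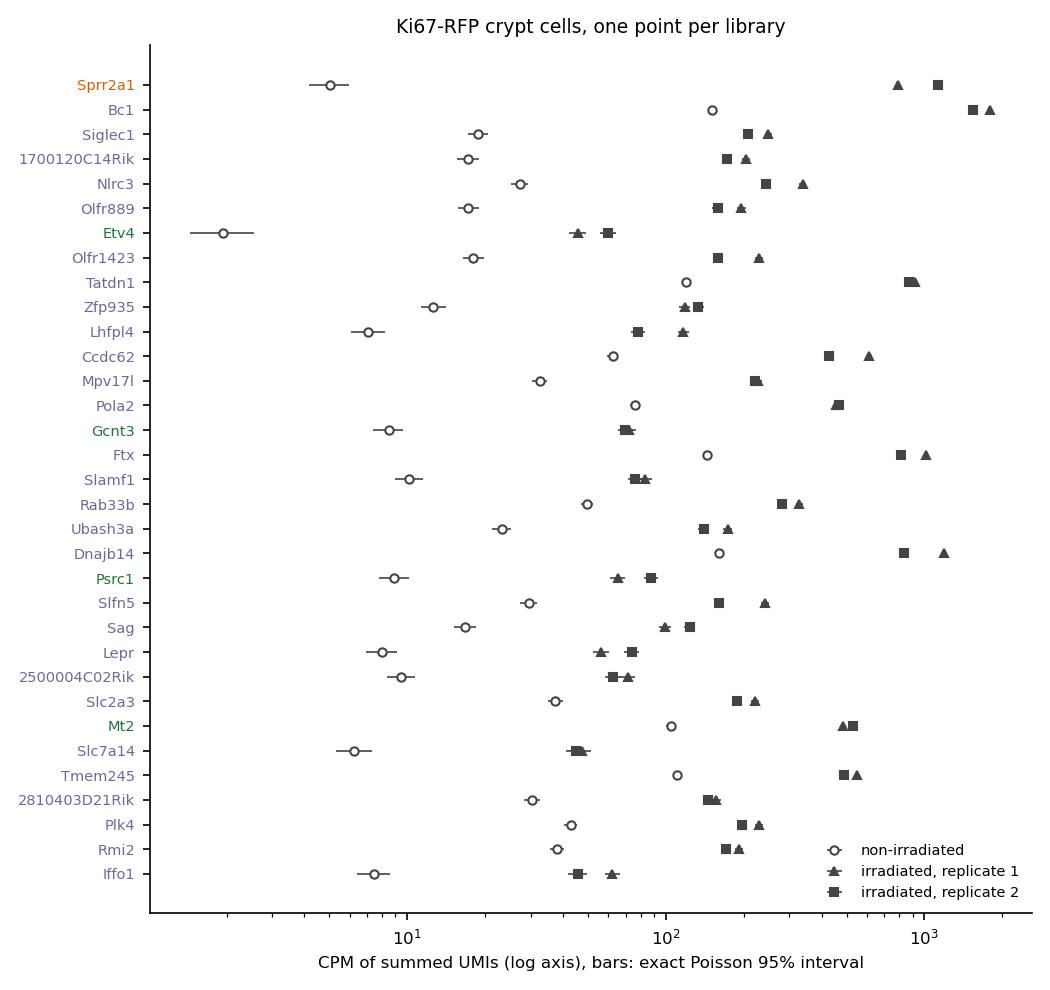
CPM of genes of the set in the 3 crypt libraries (log axis, bars exact Poisson 95% intervals), ordered by the smaller ratio. Open circles are non-irradiated, filled triangles and squares irradiated replicates 1 and 2. Gene names are green for nearly whole UMIs, orange for Sprr2a1 and grey-blue for the divided genes. Sprr2a1 at the top goes from 5.02 to 788 and 1133 CPM, and Iffo1 at the bottom lies just inside the rule.

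The 29 genes with divided UMIs covered many unrelated roles. Among the non-coding RNAs, Bc1, a short RNA made by RNA polymerase III that represses translation in neurons, was at 150, 1801 and 1546 CPM in the non-irradiated library and the irradiated replicates 1 and 2. Ftx, a long RNA from the X-inactivation center, was at 144, 1013 and 813 CPM, and 1700120C14Rik at 17.2, 205 and 173 CPM. Bc1 had the second largest ratio of the set, 9.99.

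Genes of immune cells were among the 29. Siglec1, a sialic acid receptor of macrophages, was at 18.8, 249.04 and 207 CPM, and all of its crypt UMIs stood in entries that are not whole. Nlrc3, a regulator of innate signaling, was at 27.2, 338 and 244 CPM, Slamf1, a lymphocyte receptor, at 10.2, 83.1 and 76.0 CPM, and Ubash3a, a T-cell phosphatase family protein, at 23.2, 174 and 140 CPM. Slfn5, of the interferon-responsive Schlafen family, was at 29.4, 242 and 160 CPM. Beside these, the 17 macrophage and neutrophil markers summed to 23.1, 38.7 and 30.9 CPM, the defining macrophage genes C1qa and Adgre1 had 0 UMIs apart from 1 UMI of Adgre1 in irradiated replicate 2, and the 17 T and NK cell markers summed to 48.5, 96.3 and 71.7 CPM.

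Genes of sensory organs were in the set too. The olfactory receptors Olfr889 and Olfr1423 were at 17.2, 196 and 158 CPM and at 18.01, 228 and 159 CPM, and Sag, the retinal arrestin, at 16.7, 99.0 and 124 CPM. At least 99.6% of the crypt UMIs of these 3 genes stood in entries that are not whole in every library.

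Genes of DNA replication and cell division included Pola2, a subunit of DNA polymerase alpha, at 75.7, 455 and 467 CPM, Plk4, the kinase that starts centriole duplication, at 42.9, 229 and 198 CPM, and Rmi2, a part of the complex that dissolves recombination junctions, at 37.9, 192 and 171 CPM. The 22 measured genes of a proliferation list, by contrast, summed to 2301, 2631 and 2300.1 CPM, and 0 of them met the crypt condition. Metabolic and transport genes included Mpv17l, a peroxisomal membrane protein, at 32.5, 226 and 221 CPM and the glucose transporter Slc2a3, at 37.4, 222 and 189 CPM.

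Dnajb14, a chaperone partner of the endoplasmic reticulum, was at 161, 1196 and 836 CPM, Tatdn1, a putative nuclease, at 119, 921 and 874 CPM, and Rab33b, a small GTPase of Golgi traffic and autophagy, at 49.5, 329 and 281 CPM. Ccdc62, a testis coiled-coil protein, was at 62.4, 612 and 427 CPM, Lhfpl4, a synaptic protein, at 7.05, 117 and 78.2 CPM, Zfp935, a zinc finger gene, at 12.6, 118 and 134 CPM, and Lepr, the leptin receptor, at 7.98, 56.1 and 73.7 CPM. Over the 29 genes the sum went from 1295 to 10286 and 8634 CPM, and the median gene from 27.2 to 222 and 171 CPM.

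Each threshold had close neighbours on the far side. Just inside the 4-fold limit lay Iffo1 (4.07), Rmi2 (4.11), Plk4 (4.23), 2810403D21Rik (4.26) and Tmem245 (4.26), and just outside it Gsta3 (3.93), Tnfrsf18 (3.93), Usp40 (3.84), Ankfy1 (3.76) and Pbld1 (3.75). Just under the TGFB1 limit of 0.3 lay Rab33b, with a highest log2 difference over the tables of 0.25, Plk4 (0.24), 1700120C14Rik (0.23), Nlrc3 (0.22) and Zfp935 (0.20). Just over it lay Rrm2b (0.30), Pla2g5 (0.33), Sulf2 (0.38), Zmat3 (0.39) and Atrn (0.45), of which Rrm2b and Zmat3 are p53 targets. Of the 10639 symbols at 5 CPM or more in the non-irradiated or both irradiated libraries, 1.35% met the crypt condition.

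Counting only the entries that are whole numbers (a setting added after the values were seen) left 5 of the 34 genes at a ratio of 4 or more, Etv4, Gcnt3, Mt2, Psrc1 and Sprr2a1. The 4 nearly whole genes kept a median ratio of 5.31 (4.44 to 7.29). Of the 29 divided genes 0 reached 4, but 17 of them were under 1 CPM of whole entries in every crypt library, so the added 5 CPM holds their ratio near 1. The other 12 had ratios of 0.441 to 1.88, with Bc1, Tatdn1, Lepr and Iffo1 above 1. Bc1 was the highest of them, at 28.3, 57.6 and 101 CPM of whole entries, and Mpv17l was at 12.6, 5.39 and 7.05 CPM and Ccdc62 at 7.33, 0.437 and 0.729 CPM. This count drops the whole molecules of a cell that also holds a divided one, so it lowers a gene most where divided UMIs are many. Rounding each entry down instead left all 34 in the set and added 5 other genes.

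**Figure D2:**
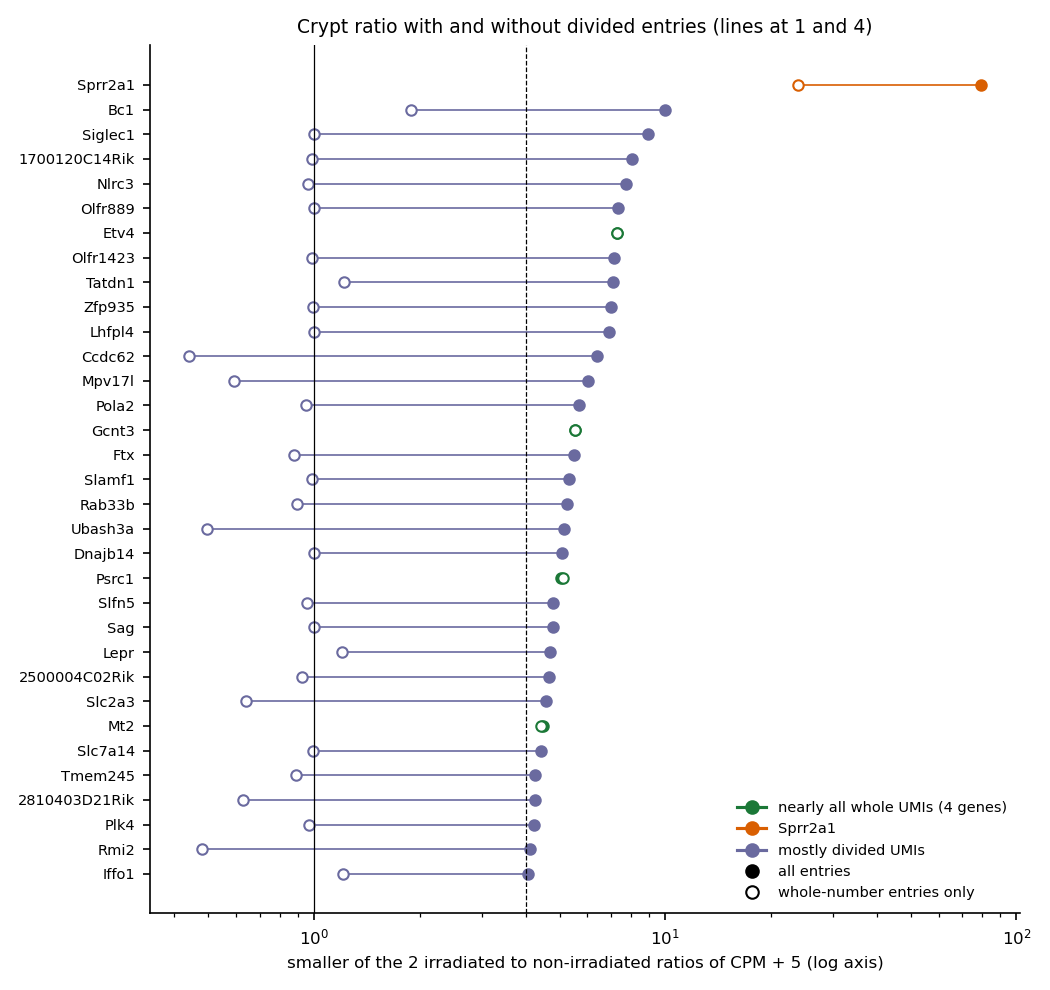
Smaller of the 2 irradiated to non-irradiated ratios of CPM + 5 for genes of the set with all entries (filled) and with whole-number entries only (open), on a log axis with lines at 1 and 4. The open circles of Etv4, Gcnt3, Psrc1 and Mt2 stay beside the filled ones, and those of the divided genes lie between 0.441 and 1.88.

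Across single cells the correlations between divided genes were higher in the irradiated libraries. Over their 406 pairs the median Spearman correlation of levels per cell was 0.030 in the non-irradiated library and 0.228 and 0.255 in the irradiated ones, and 1, 252 and 285 pairs were above 0.2. These correlations run over cells of a single library, which share its depth and its free RNA, and are descriptions. The rule chose genes at higher levels in the irradiated libraries, and correlations of sparse counts depend on level. Genes of matched level were not set beside them, so the difference between libraries cannot be told apart from the choice of genes. Pairs of a nearly whole and a divided gene had medians of 0.011, 0.001 and 0.009. The highest pair was Bc1 with Tatdn1, at 0.435, 0.585 and 0.526. The summed level of the divided genes also went with the share of a cell's other UMIs in entries that are not whole, at 0.116, 0.456 and 0.460. It was weakly opposite to total UMIs, at −0.109, −0.144 and −0.187.

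The cells were clustered without the 34 genes, and the irradiated cells fell mostly into clusters that no marker list named. Clusters 0, 4 and 5 held 664 of 719 and 640 of 699 irradiated cells and no non-irradiated cell, so cell type and condition cannot be told apart there. Cluster 5, led by Gm48610, Gm43138 and Washc4, had 22215 and 23383 CPM of the divided genes in irradiated replicates 1 and 2. Their sums were 6716 and 6061 CPM in cluster 0 and 6880 and 5913 CPM in cluster 4. Washc4 is among the crypt-high symbols with no entry in the organoid tables, and these were not left out of the clustering. The sum in cluster 5 may therefore not be independent of how the cluster formed. Sprr2a1 was distributed otherwise, with 1479 and 1518 CPM in cluster 0, 378 and 606 CPM in cluster 5 and 337 and 420 CPM in cluster 4. Mt2 was highest in cluster 4, at 700.3 and 824 CPM, against 306 and 426 CPM in cluster 0.

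The goblet-like cluster held cells of every library (67, 38 and 19), so values within a cell class can be given. The rule used these cells too. Higher values after irradiation are thus partly set by the choice of genes and give no support. There the divided genes summed to 1139 CPM in non-irradiated and to 7059 and 7653 CPM in irradiated cells, and the 4 nearly whole genes to 234, 744 and 871 CPM. Etv4 was at 2.63, 42.6 and 42.4 CPM and Mt2 at 52.7, 381 and 489 CPM in these cells. Gcnt3 was already at 170 CPM without irradiation in goblet-like cells, where mucins are made, and at 294 and 308 CPM after it. In the enterocyte-like class, 34 cells of irradiated replicate 2 had 1373 CPM of the divided genes, near the 961 CPM of 386 non-irradiated cells. In the same cells Sprr2a1 was at 2646 against 12.9 CPM and Mt2 at 475 against 110 CPM. The enterocyte-like cells of the 2 libraries came mostly from different clusters (2 and 9), and irradiated replicate 1 gave too few for a value.

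**Figure D3:**
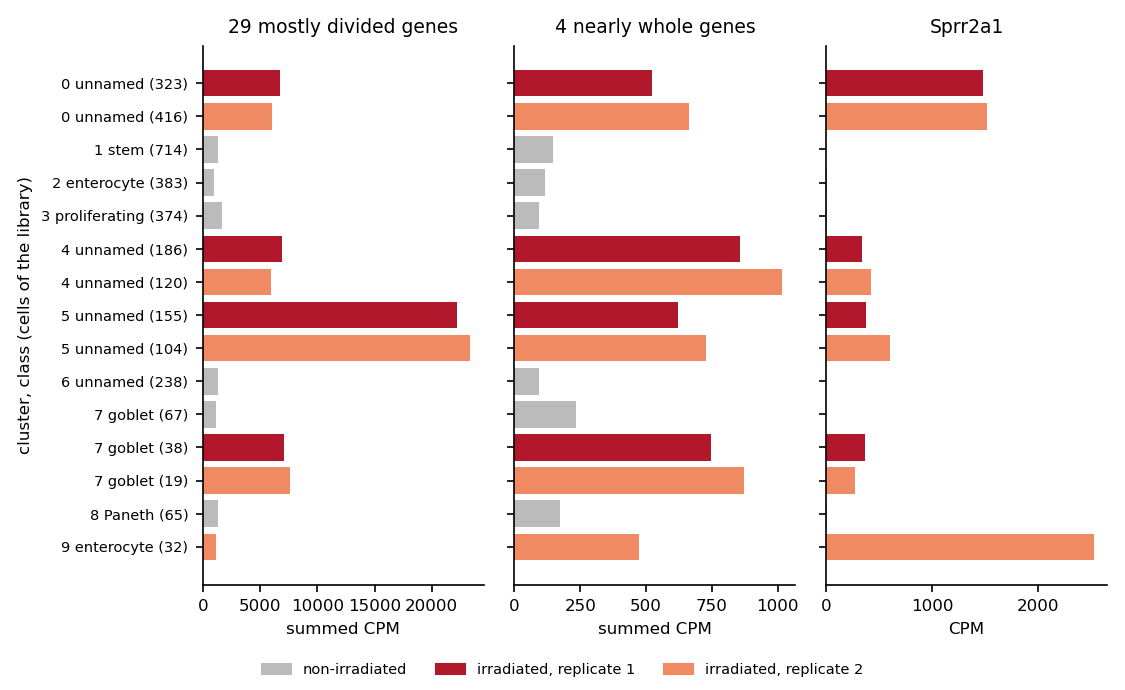
Summed CPM of the 29 divided genes, of the 4 nearly whole genes and CPM of Sprr2a1 in each cluster of crypt cells and library with at least 15 cells (cell numbers in parentheses, grey non-irradiated, red and orange irradiated replicates 1 and 2). Cluster 5 stands out for the divided genes at 22215 and 23383 CPM, and cluster 9 for Sprr2a1 at 2523 CPM.

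A cluster of 8 cells led by the lymphocyte genes Gzma, Ccl5 and Cd7 (2, 4 and 2 cells) was the only one that looked other than epithelial. Without it, 34 of 34 genes stayed at 4-fold or more, with a median smaller ratio of 5.41. Keeping only cells with an Epcam UMI (1836, 713 and 692 cells) gave 34 of 34 and 5.37. Leaving out cells with a Ptprc UMI (1837, 701 and 693 cells kept) gave 34 of 34 and 5.38. Each step removed few of the 1846, 719 and 699 cells, so the counts could hardly change and give no support.

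Many of these genes were at or near 0 FPKM in the organoids. In all 18 bulk libraries 15 of the 34 (44.1%) stayed under 1 FPKM, against 1.38% of 3119 genes of the tables at or above the same crypt CPM, and 14 of these 15 were divided genes and the other was Sprr2a1. Genes near 0 easily meet a limit on the TGFB1 difference, and the 3119 genes were not chosen by that limit. Part of this contrast is thus set by the rule. Bc1, Olfr889 and Slamf1 were listed at 0 in every library. A gene that stays under 0.2 FPKM in every library can differ by at most 0.26 on the log2(mean FPKM + 1) scale. So 11 of the 34 met the TGFB1 condition because they stayed near 0 with vehicle and with TGFB1. Such genes showed no rise past the limit and say little else about TGFB1 in these cultures. Whether bulk RNA-seq could detect them was not tested. The 4 nearly whole genes were all above 10 FPKM in at least 1 group.

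The TGFB1 difference was part of the rule, so the counts and values of the next paragraphs describe the chosen genes and nothing is read from their direction. Bulk values cannot tell fewer cells of a type from less RNA per cell. Of 15 genes at a mean of 1 FPKM or more, limma with Benjamini-Hochberg adjustment over all genes called 11 lower and 0 higher in non-irradiated D7 organoids, beside 34.9% lower and 33.3% higher of all genes. It called 9 of 17 lower and 1 higher in irradiated D7 organoids, beside 39.7 and 35.8%. At D11 it called 6 of 16 lower and 0 higher, beside 31.6 and 32.3%. The medians of the log2 difference over all 34 genes were −0.07, −0.002 and −0.04 in the 3 tables.

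Mt2 had the highest FPKM of the set. In non-irradiated organoids vehicle gave 636, 702 and 722 FPKM and TGFB1 221, 210.3 and 214 FPKM (687 ± 45.1 against 215 ± 5.19, SD, n = 3, log2 difference of FPKM + 1 −1.67). In irradiated D7 organoids vehicle gave 5431, 6035 and 5889 FPKM and TGFB1 4412, 4744 and 4198 FPKM (−0.38). The groups did not overlap in either table. At D11 vehicle gave 1578, 2330.4 and 1146 FPKM and TGFB1 1249, 1196 and 837 FPKM (−0.62), where the groups overlapped.

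Psrc1 was lower with TGFB1 in every library of each table. Vehicle gave 19.3, 20.4 and 22.4 FPKM and TGFB1 9.02, 9.67 and 9.48 FPKM in non-irradiated D7 organoids (log2 difference −1.06). Vehicle gave 12.8, 12.3 and 12.8 FPKM and TGFB1 5.53, 6.00 and 5.69 FPKM in irradiated D7 organoids (−1.02), and 46.6, 44.1 and 43.5 against 22.6, 23.5 and 20.5 FPKM at D11 (−0.98). No library of one treatment reached the range of the other.

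The means of Etv4 with vehicle and TGFB1 were 14.7 ± 0.984 and 15.5 ± 0.322 FPKM without irradiation (SD, n = 3, log2 difference 0.07, overlapping), 21.6 ± 0.263 and 18.02 ± 0.881 FPKM after irradiation at D7 (−0.25) and 36.4 ± 0.913 and 21.5 ± 1.23 FPKM at D11 (−0.74). Gcnt3 stood at 60.9 ± 0.913 and 41.9 ± 1.99 FPKM (−0.53), 19.8 ± 0.627 and 21.3 ± 2.12 FPKM (0.10, overlapping) and 45.7 ± 3.94 and 36.3 ± 1.78 FPKM (−0.32). In the other tables all 3 TGFB1 libraries lay below the 3 vehicle libraries.

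The division genes among the divided ones were measurable in bulk, where no UMI is involved. Plk4 went from 12.8, 12.1 and 11.5 to 6.94, 6.79 and 6.76 FPKM without irradiation and from 7.45, 8.54 and 8.10 to 2.27, 2.97 and 2.86 FPKM in irradiated D7 organoids (log2 differences −0.75 and −1.29). At D11 it was at 10.0, 8.53 and 6.28 FPKM with vehicle and 9.99, 9.60 and 10.4 FPKM with TGFB1 (0.24, overlapping). Rmi2 had the lowest difference of the set in irradiated D7 organoids, from 3.02, 3.04 and 2.95 to 0.593, 0.679 and 0.487 FPKM (−1.34), and was lower in the other tables too (−0.62 and −0.49). Pola2 went from 38.0 ± 0.378 to 19.6 ± 1.31 FPKM in irradiated D7 organoids (SD, n = 3, −0.92) and less without irradiation, from 23.1 ± 0.256 to 20.4 ± 0.801 FPKM (−0.18).

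Among the remaining measurable genes, Mpv17l was lower in each table (−0.67, −0.62 and −0.44), from 8.60 ± 0.614 to 5.04 ± 0.368 FPKM without irradiation (SD, n = 3). Tmem245, a transmembrane protein, was lower without overlap at D7 (−0.55 and −0.36) and overlapped at D11 (−0.37). Tatdn1 was lower without overlap in non-irradiated organoids by a small difference (−0.15) and at D11 (−0.47). Rab33b went from 5.24 ± 0.444 to 6.40 ± 0.176 FPKM in irradiated D7 organoids (SD, n = 3, 0.25), and it was lower with TGFB1 without irradiation (−0.17). The difference of Rab33b between the tables was not tested. Of the low genes, 2810403D21Rik at D11 (−0.73) and Ccdc62 at D11 (−0.64) stood at vehicle means of 1.02 and 0.741 FPKM.

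**Figure D4:**
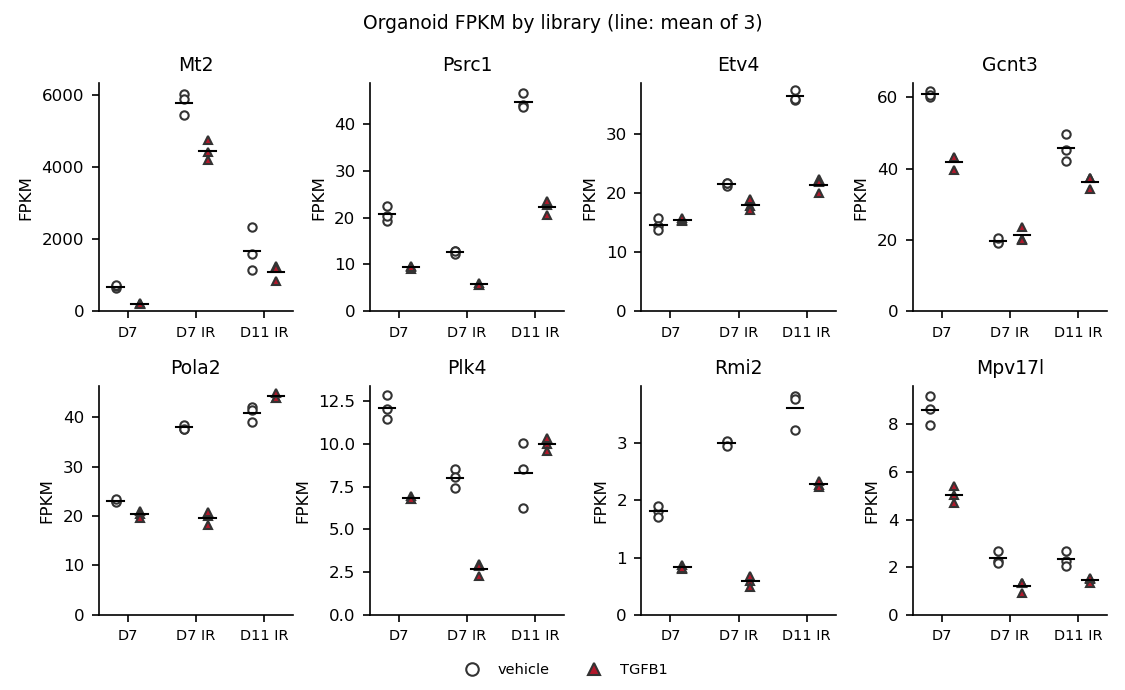
FPKM of 8 genes in each bulk organoid library (open circles vehicle, red triangles TGFB1, line the mean of 3) for non-irradiated D7, irradiated D7 and irradiated D11 organoids, with each axis from 0. Mt2 reaches 6035 FPKM in irradiated D7 vehicle organoids, Psrc1 has no overlap between treatments, and Pola2 and Plk4 are lower with TGFB1 at D7 but not at D11.

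Irradiation of the organoids themselves was not used by the rule. The tables were normalized separately, so vehicle groups were set side by side as levels without a test. A gene counted as higher when its mean FPKM + 1 was at least 2-fold higher and the 3 libraries of each group did not overlap. At D7, 1 of 15 measurable genes was higher after irradiation, which was Mt2 (687 and 5785 FPKM, 8.42 times), beside 8.03% of 11235 genes. Lower were 3, Gcnt3 (60.9 and 19.8 FPKM), Mpv17l (8.60 and 2.38 FPKM) and Tmem245 (9.52 and 3.89 FPKM), beside 7.44% of all genes. The median log2 difference was −0.54 for the 15 genes and −0.03 for all genes. Etv4 (0.52) and Psrc1 (−0.67) did not reach 2-fold, and Sprr2a1 was at 0.047 and 0.056 FPKM. Genes with a mean under 1 FPKM over both groups were not counted as measurable. Among them 1700120C14Rik went from 0.110 to 1.22 FPKM (0.998) and Nlrc3 from 0.470 to 1.47 FPKM (0.75), both under the 2-fold limit on FPKM + 1. The lowest difference among them was that of 2810403D21Rik (−0.27). Both shares for the set rest on few genes, and that of higher genes is near the share over all genes.

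From D7 to D11 in irradiated vehicle organoids, 2 of 17 genes were higher, Psrc1 (12.6 and 44.7 FPKM) and Gcnt3 (19.8 and 45.7 FPKM), beside 3.51% of 11264 genes. Mt2 was the only gene that was lower (5785 and 1685 FPKM), beside 3.28%. Etv4 went from 21.6 to 36.4 FPKM, under the 2-fold limit. Mt2 and Gcnt3 were each nearer to their non-irradiated D7 level at D11 than at D7. Both differences use the same irradiated D7 vehicle libraries, so a gene far out in the first tends to reverse in the second. There was no non-irradiated D11 group, so culture day and time after irradiation cannot be told apart.

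The single cells of irradiated D8 organoids were not used by the rule either, and with 1 library per time they give values without a test. Sprr2a1 went from 335 CPM at 0 h to 744, 2388 and 2932 CPM at 6, 15 and 24 h of TGFB1, with ratios of CPM + 5 of 2.203, 7.04 and 8.63. Sprr2a2 was at 338, 726, 2372 and 2651 CPM and Sprr2a3 at 19.8, 68.7, 215 and 269 CPM. The set's name as not raised by TGFB1 thus does not hold for Sprr2a1 in these cells. In the bulk tables its values were 0.000 to 0.228 FPKM, which is where the rule read it.

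Mt2 went from 8543 CPM at 0 h to 3931, 3957 and 4584 CPM, ratios of 0.460, 0.464 and 0.537. Gcnt3 was at 29.9, 17.3, 13.2 and 14.3 CPM (ratios 0.638, 0.522 and 0.552), Psrc1 at 8.60, 7.91, 6.501 and 5.43 CPM and Etv4 at 14.9, 13.3, 11.5 and 12.9 CPM. Each of the 4 nearly whole genes stood below its 0 h level at every later time, by little for Etv4 and for Psrc1 at 6 h. The share of all symbols below their 0 h level was not counted. The rule had left out genes raised by TGFB1 in bulk, so nothing is read from this direction.

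Taking 2-fold either way as the limit, 1 gene was higher and 1 lower at 6 h and at 15 h (Sprr2a1 and Mt2), beside 0.672 and 1.58% of symbols higher and 0.188 and 0.498% lower. At 24 h, 2 were higher, Sprr2a1 and Bc1, and 0 lower, beside 3.45 and 0.912%. Bc1 was at 53.1, 46.4, 36.3 and 116 CPM, with a ratio of 2.08 at 24 h that fell under 2 with TMM factors, which put Mt2 among the lower genes at 24 h. With CPM + 1, Gcnt3 was lower at 15 and 24 h. The other 28 divided genes stayed within 2-fold at every time. As a group the divided genes summed to 483, 426, 365 and 551 CPM. These sums lay under those of the crypt libraries, both without irradiation (1295 CPM) and after it (10286 and 8634 CPM). The median ratios of the divided genes were 0.907, 0.849 and 0.993 against 1.02, 1.00 and 1.02 over all symbols. Entries that are not whole held 9.08, 8.61, 9.29 and 11.9% of the UMIs of the whole library at these times. Their part in the values of the divided genes was not tested.

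**Figure D5:**
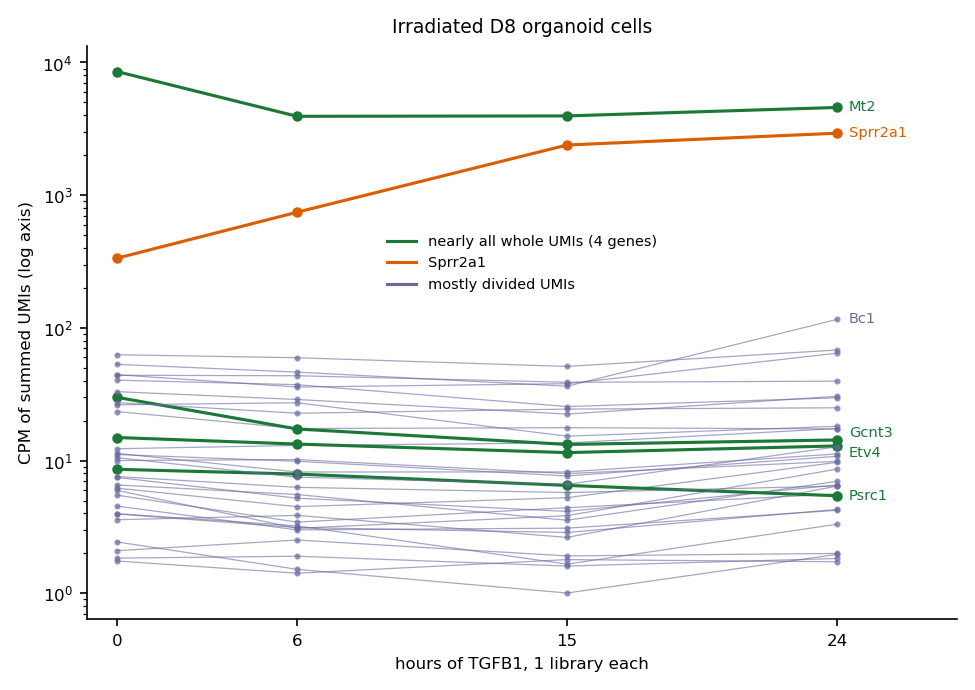
CPM of genes of the set in irradiated D8 organoid cells against hours of TGFB1 (log axis, 1 library per time, 0 h is vehicle), with the nearly whole genes in green, Sprr2a1 in orange and the divided genes in grey-blue. Sprr2a1 goes from 335 to 2932 CPM and Mt2 from 8543 to 4584 CPM, while the divided genes run nearly level except Bc1 at 24 h.

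Of 10 lists of epithelial and stress genes, 3 held a gene of the set: Psrc1 among 38 p53 targets, Mt2 among 36 genes of oxidative stress and detoxification, and Sprr2a1 among the 38 measured genes of regenerative and fetal-like epithelium. In the crypt cells 5 of the 38 p53 targets, 3 of the 36 oxidative stress genes and 16 of the 38 regenerative genes were at least 4-fold higher in both irradiated libraries, with medians of the smaller ratio of 2.25, 0.940 and 3.65. The remaining crypt-high genes of these lists reached the TGFB1 limit in a table or had no entry there. No gene of the 49 measured interferon-stimulated genes, of the 37 of the interferon-gamma response or of the 38 measured cytokines was in the set, and 1, 0 and 2 of them met the crypt condition. The lists thus share 3 genes with the set, and 2 of these are nearly whole genes.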

How the data were processed

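For bulk RNA the authors supplied FPKM, with each irradiation and day in a separate table. Cuffnorm 2.2.1 and TopHat2 2.1.0 are named in the submitters' processing notes. For single cells they deposited estimated UMI counts (expected counts), some of them not whole. STARsolo and STAR 2.7.10a are named in the same notes. They were not rounded, except in a stated alternative. Rows of 1 symbol were summed over cells with at most 20% mitochondrial UMIs, and values are CPM. Genes were chosen by the rule in the report. The members and lists were chosen with earlier results of these data known. An entry counted as whole within 1e-06. FPKM were fitted as log2(FPKM + 1) with limma 3.58.1 (trend, robust, R 4.3.3), two-sided, on those genes whose mean reached 1 FPKM, and the script was tested on simulated data. Its counts for the set describe genes chosen on the same tables. Named with values were genes of the lists, the 25 largest crypt ratios, the 15 highest FPKM, the 5 lowest differences per table and 5 on either side of each threshold. Mt1, Sprr2a2 and Sprr2a3 were added after their values were seen. Cells were clustered with scanpy 1.11.5 and leidenalg 0.10.2 (2000 variable genes, 30 components, resolution 0.6), clusters named from markers at a median fold of 1.5 or more (set after the values were seen), and doublets were not called. Read depth of the bulk libraries is unknown. Values of 1 gene of the set are not reported here, although counts and sums over the set include it. ATAC peaks were not used here. RefSeq sequences are of GRCm38.p6.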

Additional observations from a re-analysis of the deposited data

Results flagged for a closer look

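Pola2 and Rab33b had TGFB1 differences in opposite directions between organoid tables, with all 3 libraries of a treatment on the same side of the other 3. Pola2 had log2 differences of FPKM + 1 of −0.18 in non-irradiated D7, −0.92 in irradiated D7 and 0.11 in D11 organoids. The D11 difference of Pola2 was not called by limma (adjusted p 0.17). Rab33b had −0.17 in non-irradiated and 0.25 in irradiated D7 organoids, and at D11 its groups overlapped. Its limma call without irradiation was lost without vehicle replicate 1 or 2 and without TGFB1 replicate 1 or 3. The differences between the tables were not tested. Groups of 3 are too small for the check of single libraries that lie apart.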

How the results depend on the processing

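The number of genes that met the rule was 34. It was 68 with CPM + 1, 16 with CPM + 20, 74 at 3-fold, 13 at 6-fold, 14 with a TGFB1 limit of 0 and 5 with whole-number entries alone (added after seeing the data). It was 43 to 45 without either irradiated crypt library, 26 with TMM factors, which shift the irradiated libraries by 0.22 and 0.25 on the log2 scale, and 34 to 39 under the other settings, among them 39 with RefSeq synonyms for symbols (also added). Counts called lower with TGFB1 were 9 to 12 in non-irradiated D7, 8 to 10 in irradiated D7 and 6 to 8 in D11 organoids over all settings. With the replicate number as a block they were 11, 9 and 7, with Mt2 gained at D11, as without vehicle replicate 3. The lower call of Tatdn1 in non-irradiated organoids was lost without the low-value filter, with quantile or median-ratio scaling and without any of vehicle replicates 1 and 2 and TGFB1 replicates 2 and 3. The numbers did not pair the samples, since the correlations of same-numbered libraries ran from −0.09 to 0.21. Vehicle counts stayed at 1 and 2 under every setting, time course counts at 2 or 3 (with other genes at 24 h under TMM factors and CPM + 1), and the epithelial count at 34. The 24 h TMM shift was 0.10. Comparisons with ATAC peaks were not run, since their coordinates did not match the gene starts used here.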
